A study of Mus musculus with 7 samples.

Results

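Nuclear lamina and LINC complex genes were compared between mouse embryonic stem cells (mESCs) and mouse embryonic fibroblasts (MEFs). The members were named by gene symbol, Lmna, Lmnb1, Lmnb2, Lbr, Emd, Tmpo, Sun1, Sun2, Syne1 and Syne2, and all 10 were found among the 55484 rows of the count table. RNA was counted in 4 MEF and 3 mESC libraries, with no treatment, age or passage given. A C57/Bl6 background is stated by the study for its MEFs and mESCs, in its methods for chromatin accessibility libraries. The study calls its expression samples biological replicates, but gives fewer for MEFs than the libraries counted here. Neither it nor the labels say whether libraries of one cell type came from separate cultures or embryos, so p-values measure the spread between these libraries. MEFs are fibroblasts grown from the mouse embryo, and mESCs are pluripotent cells derived from the early embryo.

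The lamina is a meshwork of intermediate filament proteins under the inner nuclear membrane. Lmna encodes the A-type lamins, lamin A and lamin C, which are abundant in stiff mesenchymal tissues, while Lmnb1 and Lmnb2 encode the B-type lamins found in nearly all cells. Lbr (lamin B receptor), Emd (emerin) and Tmpo (LAP2 proteins) tie chromatin and lamins to the inner membrane. SUN proteins of the inner membrane and nesprins of the outer membrane, encoded by Sun1, Sun2, Syne1 and Syne2, join into the LINC complex, which couples the nucleus to the cytoskeleton.

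Totals ran from 6528643 to 11441278 counts per library, and the lowest count of any member in any library was 20. The floor of 3 counts lay between 0.262 and 0.460 CPM (each count relative to the total of its library), far below each member, and covers counting error only. The cell types were checked by marker genes. All 9 tested mESC markers were higher in mESCs and all 10 MEF markers were lower. A further listed mESC marker, Fut4, was not tested, with 3 to 13 counts in MEFs and 7 to 9 in mESCs. Summed over the list, mESC markers held 39.8 to 42.5 CPM in MEFs and 3569 to 3658 CPM in mESCs. The extraction text of the labels describes blood stem cells of young and aged mice. The column names carry the letter O in every MEF library and Y in every mESC library, whose meaning is not given, so what the letters stand for and the cell type cannot be told apart. Of 12 blood stem cell markers, 8 of them tested, 1 was higher (Kit) and 3 were lower in mESCs (Cd34, Mecom and Procr). Ptprc, which marks blood cells, had at most 17 counts in any library. Other markers of the list were counted more, with 169 to 289 counts of Cd34 in MEFs and 250 to 302 of Kit in mESCs. Whether blood cells were present was not tested. All pairs of libraries within a cell type differed beyond sampling noise (chi-square of 15.6 to 31.1 for each degree of freedom), so none was counted as a duplicate.

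Lmna fell most of all members. The other lamins did not fall with it, and the 4 members that rose were Lmnb2, Lbr, Sun1 and Syne2. Lmna, Emd and Sun2 fell, and Lmnb1, Tmpo and Syne1 did not pass the test. A call here is a Benjamini-Hochberg adjusted p under 0.05 over all 16580 genes tested, from edgeR's quasi-likelihood test. The members thus had 4 of 10 called higher, where 22.8% of all tested genes were, and 3 of 10 called lower, where 25.0% were. The libraries of both cell types did not overlap for 7 of the 10 members, against 52.1% of all tested genes. The median log2 fold change of the members was 0.03, against 0.04 over all tested genes, and their median absolute log2 fold change was 0.80 against 0.81. The size of the members' changes thus lay near that of all genes, while their directions were mixed.

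**Figure D1:**
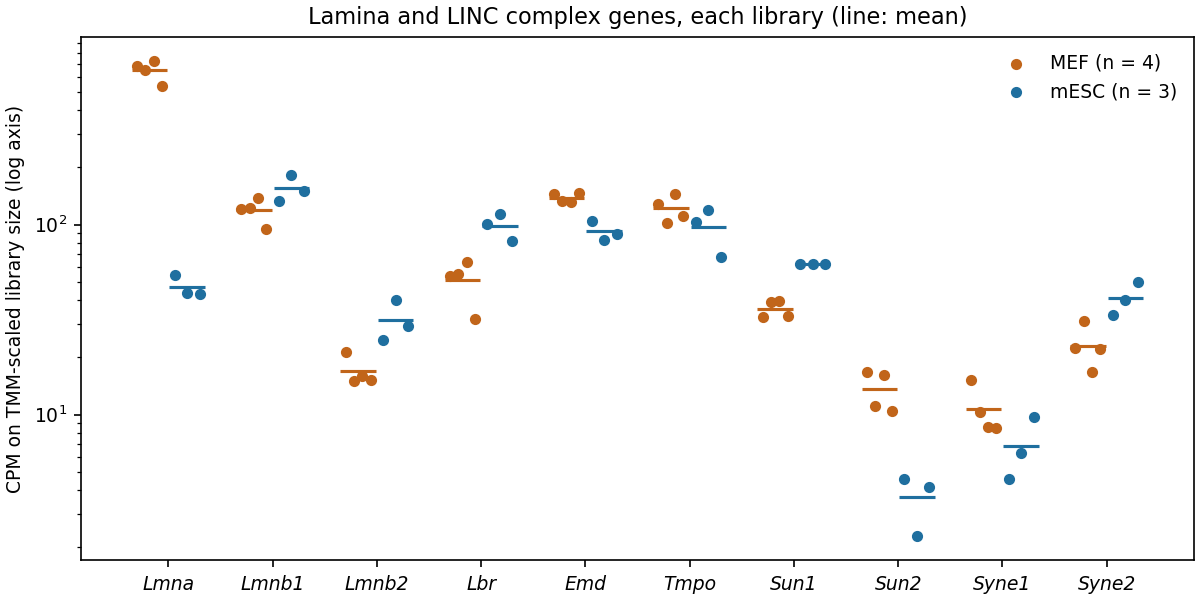
Level of each member in every library, in CPM on TMM-scaled library sizes (log axis), with 1 point per library for 4 MEF and 3 mESC libraries and a line at the mean. Lmna in mESCs lies between 43.0 and 54.5 CPM, below every MEF library, and the libraries of Lmnb1, Tmpo and Syne1 overlap.

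CPM values below are on library sizes scaled by edgeR's TMM method, and libraries are given in order of falling total counts. Lmna (chromosome 3 of GRCm38, 88480147 to 88509956) held 679, 648, 730 and 535 CPM in the MEF libraries and 54.5, 43.6 and 43.0 CPM in the mESC libraries. Every mESC library was thus far below every MEF library. The log2 fold change was -3.78 (standard error, SE, 0.173, edgeR adjusted p = 6.84e-08), and 4.65% of all tested genes had a lower fold change. In linear terms Lmna was 13.8-fold lower in mESCs, which corresponds to 7.26% of the MEF mean. In bulk samples, fewer cells with a transcript and less of it per cell cannot be told apart. Over library totals, without TMM scaling, the 10 MEF markers summed to 23350 to 37810 CPM in MEFs and 420 to 464 CPM in mESCs. In mESCs, 7 of them were at 0.452 to 2.05% of their MEF means, among them Thy1, the surface marker of MEFs, at 2.02%. The other 3, Twist1 at 8.05%, Lum at 16.6% and Fn1 at 41.0%, were at a higher share than Lmna. The study describes a sort of mESCs that leaves out Thy1+ cells, but does not say whether the cells used for RNA went through it. The part of fibroblasts in the remaining Lmna counts of mESCs was not tested. The counts are from the 3′ side of transcripts and are summed over each gene, so lamin A and lamin C were not separated.

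Lmnb1 (chromosome 18, 56707813 to 56753424), the B-type lamin known to be lost in senescent cells, was measured at 121, 122, 138 and 94.4 CPM in MEFs and at 133, 182 and 150 CPM in mESCs. A single MEF library, that of 7312679 counts, exceeded the lowest mESC library. The log2 fold change was 0.39, with a 95% interval of 0.0045 to 0.77 that is not adjusted for the number of genes, and the edgeR adjusted p was 0.0892. This miss depended on the scaling. Over library size alone, the log2 fold change was 0.67 (adjusted p = 0.00498, edgeR), and the adjusted p without the fold threshold ran from 0.00498 to 0.320 over the alternatives. Lmnb2 (chromosome 10, 80901203 to 80918245) encodes the other B-type lamin and held 21.4, 14.9, 15.9 and 15.2 CPM in MEFs and 24.6, 40.0 and 29.4 CPM in mESCs. Its mESC libraries were all above its MEF libraries, with a narrow gap between 21.4 and 24.6 CPM. It rose by a log2 fold change of 0.89 (SE 0.235, edgeR adjusted p = 0.00939). Without the mESC library of 8057985 counts, the adjusted p was 0.0547.

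The Lmna to Lmnb1 ratio was taken within each library, which needs no scaling between libraries. It was 5.63, 5.33, 5.28 and 5.67 in the MEF libraries and 0.409, 0.240 and 0.286 in the mESC libraries. The MEF ratios stayed within a narrow band over libraries that differed in depth, and the mESC ratios were lower in every library. On the log2 scale, with 0.5 added to each count, the mean was 2.45 ± 0.05 in MEFs (SD, n = 4) and -1.72 ± 0.39 in mESCs (SD, n = 3). The difference was -4.17 (SE 0.228), an 18.0-fold lower ratio in mESCs (exact permutation test over 35 splits, two-sided, p = 0.0286, the smallest possible, adjusted p = 0.0357 over 5 ratios). The spread of the mESC ratios was the wider one. The mESC library of 8193825 counts had the highest ratio and the highest Lmna level of the 3.

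**Figure D2:**
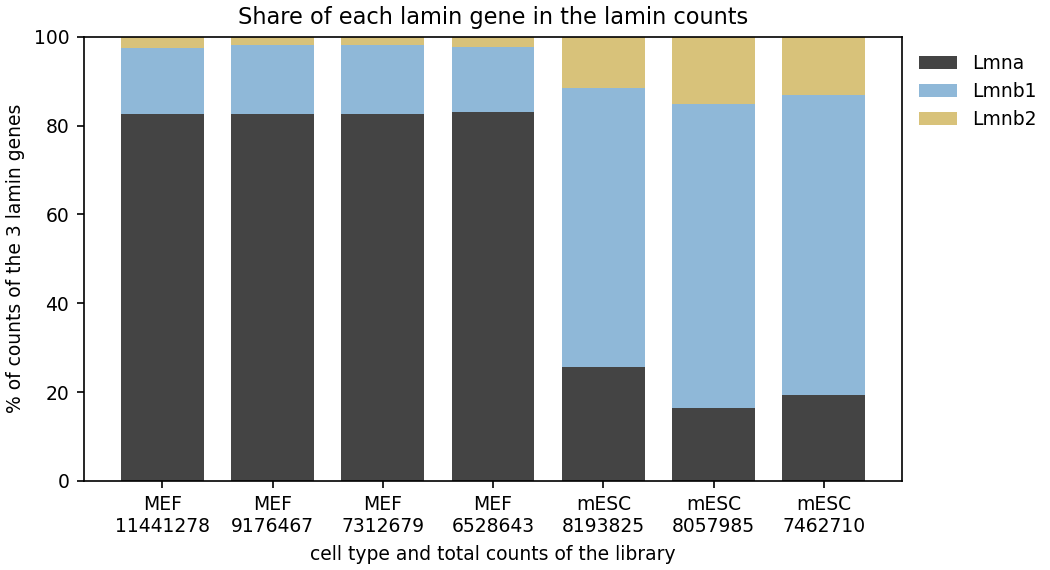
Share of Lmna, Lmnb1 and Lmnb2 in the summed counts of the 3 lamin genes, in percent, 1 bar per library. Lmna takes 82.6 to 83.0% in the MEF libraries and 16.4 to 25.7% in the mESC libraries.

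The same shift was seen in the makeup of the lamin counts. Lmna took 82.7%, 82.6%, 82.6% and 83.0% of the counts of the 3 lamin genes in the MEF libraries and 25.7%, 16.4% and 19.3% in the mESC libraries. Lmnb1 took 14.6 to 15.6% in MEFs and 62.8 to 68.5% in mESCs. Because reads carried molecular identifiers and came from the 3′ side, counts were not divided by length. The shares are read between libraries, not as the protein makeup of the lamina. The summed level of the 3 genes was 645 to 884 CPM in MEFs and 212 to 265 CPM in mESCs. Without Lmna the 2 B-type genes held 110 to 154 CPM in MEFs and 158 to 222 CPM in mESCs.

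Of the inner membrane proteins, Lbr, which binds B-type lamins and heterochromatin and is also a sterol reductase, held 53.6, 54.7, 63.3 and 31.6 CPM in MEFs and 100.1, 114 and 82.0 CPM in mESCs. Every mESC library was above every MEF library, and the MEF library of 6528643 counts was the lowest. Lbr (chromosome 1, 181815335 to 181843046) rose by a log2 fold change of 0.96 (SE 0.228, edgeR adjusted p = 0.00540). Dnah14 on the opposite strand covers 9.24% of its exonic bases, and the strand setting of the counting is not given in the sources used here. Dnah14 itself had at most 37 counts in any library, against at least 198 for Lbr. Lmna and Lbr are both known as tethers of heterochromatin at the nuclear edge, and their ratio was 12.7, 11.9, 11.5 and 16.9 in MEFs and 0.544, 0.384 and 0.525 in mESCs. The log2 difference was -4.77, a 27.3-fold lower ratio in mESCs (SE 0.203, exact permutation test, p = 0.0286, adjusted p = 0.0357).

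Emd encodes emerin, an inner membrane protein with a LEM domain that binds lamins. Its libraries held 144, 133, 132 and 146 CPM in MEFs and 104, 82.7 and 88.9 CPM in mESCs. The levels within MEFs were close together, and all 3 mESC libraries lay below them. Emd (chromosome X, 74254687 to 74261548) fell by 0.59 on the log2 scale (SE 0.145, edgeR adjusted p = 0.00620). Over library size alone the log2 fold change was -0.31 and missed the threshold (adjusted p = 0.118, edgeR, the highest of the alternatives that tested for any change). The gene model Gm14686 shares 13.6% of its exonic bases on the same strand and is listed at 0 counts in every library. Tmpo (chromosome 10, 91147571 to 91181315), which encodes the LAP2 isoforms, was measured at 129, 101, 145 and 111 CPM in MEFs and at 103, 119 and 67.7 CPM in mESCs. Both cell types overlapped, and the 95% interval of the log2 fold change was -0.80 to 0.14 (edgeR adjusted p = 0.228). The isoforms, which include a nucleoplasmic form, were not separated.

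**Figure D3:**
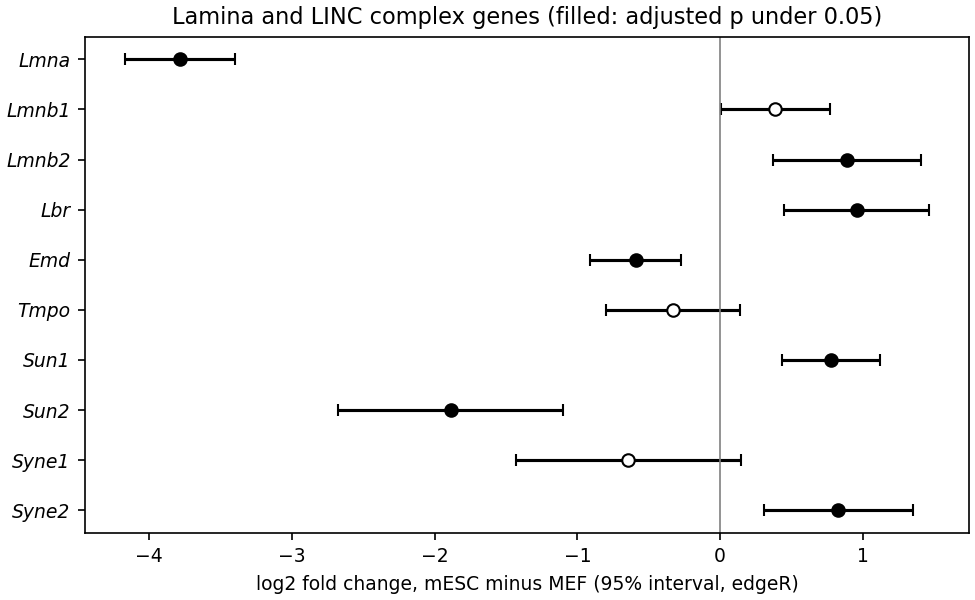
Log2 fold change of each member, mESC minus MEF, with its 95% interval from edgeR (4 MEF and 3 mESC libraries). Lmna at -3.78 and Sun2 at -1.89 lie farthest from 0, and the open points (Lmnb1, Tmpo and Syne1) did not pass the adjusted threshold.

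The SUN genes moved in opposite directions. Sun2 (chromosome 15, 79724070 to 79742536) held 174, 92, 106 and 65 counts in the MEF libraries and 42, 20 and 35 counts in the mESC libraries. These are 16.8, 11.1, 16.2 and 10.4 CPM in MEFs and 4.57, 2.28 and 4.15 CPM in mESCs, without overlap. The lowest count, 20, has an exact Poisson 95% interval of 12.2 to 30.9, which covers counting error only. Sun2 fell by 1.89 on the log2 scale (SE 0.355, edgeR adjusted p = 0.00127). Sun1 (chromosome 5, 139200637 to 139249840) held 32.8, 39.0, 39.4 and 33.1 CPM in MEFs and 61.6, 62.1 and 61.6 CPM in mESCs. The mESC libraries were nearly equal, and all were above the MEF libraries. Sun1 rose by a log2 fold change of 0.78 (SE 0.154, edgeR adjusted p = 0.00176). Both proteins bind nesprins through a SUN domain at their C terminus, and SUN1 also has a role in anchoring telomeres in meiosis. The Sun2 to Sun1 ratio was 0.512, 0.284, 0.412 and 0.314 in MEFs and 0.0742, 0.0368 and 0.0673 in mESCs. It was 6.43-fold lower in mESCs, a log2 difference of -2.69 (SE 0.366, exact permutation test, p = 0.0286, adjusted p = 0.0357). Opposite-strand gene models overlap 3.98% of the exonic bases of Sun1 and 2.71% of those of Sun2.

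The sequences just before the starts of the SUN genes are shown because these paralogues moved in opposite directions. Each is the 250 bases before a RefSeq start on GRCm38.p6, written 5′ to 3′ on the strand of the gene. Capitals mark a GC box, the letters GGGCGG on either strand.
Sun1, plus strand, chr5:139200387-139200636: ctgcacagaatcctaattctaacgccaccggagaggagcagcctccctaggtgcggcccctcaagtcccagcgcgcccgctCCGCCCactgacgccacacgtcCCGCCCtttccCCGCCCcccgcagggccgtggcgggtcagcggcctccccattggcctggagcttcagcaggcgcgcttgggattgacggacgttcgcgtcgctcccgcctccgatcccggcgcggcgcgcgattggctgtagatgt
Sun2, minus strand, chr15:79742537-79742786: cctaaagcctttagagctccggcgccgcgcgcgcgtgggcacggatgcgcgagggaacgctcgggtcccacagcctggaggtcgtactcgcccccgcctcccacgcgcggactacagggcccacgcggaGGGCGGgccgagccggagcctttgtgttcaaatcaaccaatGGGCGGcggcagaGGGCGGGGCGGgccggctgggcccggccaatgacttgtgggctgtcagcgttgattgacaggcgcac

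Both windows shown were rich in CpG. Sun1 had 30 CpG and 70.0% G or C, and Sun2 had 31 CpG and 70.8%. The median over 32851 such windows, with chromosome 18 left out, was 6 CpG and 52.4%. More GC boxes were found in the window of Sun2, 4 against 3, counting overlapping matches, and 32.7% of the 32851 windows held at least 1. Neither window shown held the AP-1 letters TGANTCA or the TATA letters TATAAA on either strand, which 6.75% and 12.4% of the 32851 windows held. A match describes letters only, and no match says only that these letters are not in the window. The window of Sun2 also holds exonic bases of the lncRNA gene model Gm16576. A second RefSeq start of Sun1 lies within the gene, and its window (chr5:139214908-139215157) differed in these features, with 0 GC boxes, 1 TATA match, 1 CpG and 43.6% G or C. The 3′ counts do not tell which start was used.

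The nesprin genes Syne1 and Syne2 encode giant proteins whose long forms bind actin. The 3′ counts are summed over each gene, so long and short forms were not separated. Syne2 (chromosome 12, 75818134 to 76110926) held 22.4, 31.1, 16.7 and 22.1 CPM in MEFs and 33.5, 40.0 and 49.6 CPM in mESCs. Its libraries did not overlap, though the highest MEF value was close to the lowest mESC value. Syne2 rose by a log2 fold change of 0.83 (SE 0.237, edgeR adjusted p = 0.0142). Without the mESC library of 7462710 counts the adjusted p was 0.0686. Syne1 (chromosome 10, 5020917 to 5551482) held 15.2, 10.3, 8.58 and 8.47 CPM in MEFs and 4.57, 6.28 and 9.72 CPM in mESCs, and the cell types overlapped. The log2 fold change was -0.64, with a 95% interval of -1.43 to 0.15 (edgeR adjusted p = 0.166). The Syne2 to Syne1 ratio was nevertheless separated. It was 1.47, 3.00, 1.95 and 2.60 in MEFs and 7.33, 6.36 and 5.10 in mESCs, a log2 difference of 1.51 (SE 0.273, exact permutation test, p = 0.0286, adjusted p = 0.0357).

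Of the 5 ratios tested, Lmnb2 to Lmnb1 alone missed the threshold. It was 0.177, 0.123, 0.115 and 0.161 in MEFs and 0.185, 0.220 and 0.195 in mESCs, a log2 difference of 0.49 (SE 0.167, exact permutation test, two-sided, p = 0.0571, adjusted p = 0.0571). Its libraries did not overlap, but the gap between 0.177 and 0.185 was small.

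**Figure D4:**
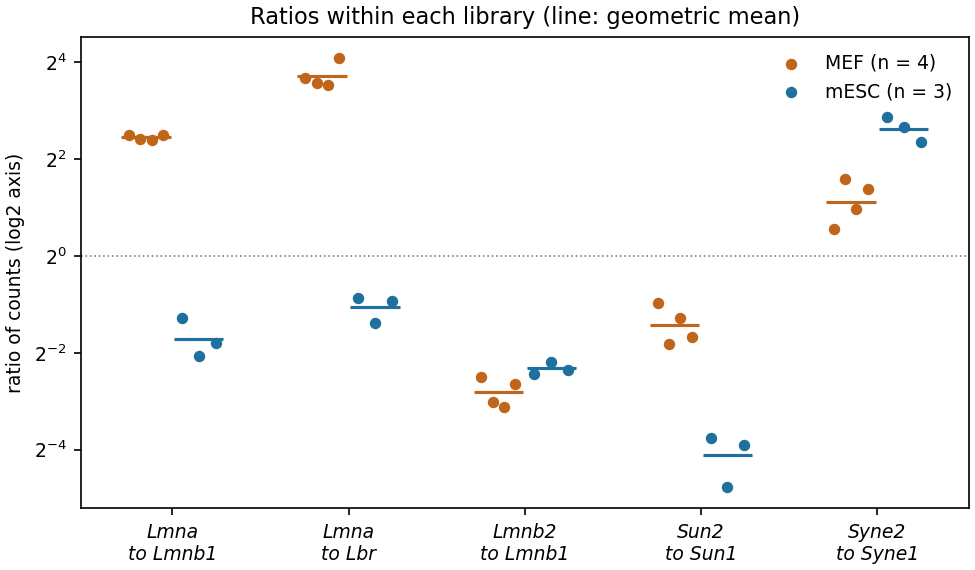
Ratio of the counts of 2 members within each library (log2 axis), for 4 MEF and 3 mESC libraries, with a line at the geometric mean. The Lmna to Lmnb1 ratio lies between 5.28 and 5.67 in MEFs and between 0.240 and 0.409 in mESCs. The Sun2 to Sun1 ratio is lower and the Syne2 to Syne1 ratio higher in mESCs, where the direction depends on which gene is put on top.

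Further nuclear envelope genes were taken from 6 lists with 66 genes. The calls of each list are set beside those of all tested genes, of which 22.8% were higher and 25.0% lower. Of 14 other inner membrane and LEM genes, 2 were higher and 5 lower in mESCs, with a median log2 fold change of 0.08. Tmem43 (LUMA), known to bind emerin and lamins, held 41.9, 44.7, 65.7 and 42.8 CPM in MEFs and 18.6, 4.57 and 11.1 CPM in mESCs. It fell by 2.09 on the log2 scale (edgeR adjusted p = 0.00140), in the same direction as Lmna and Emd. Nrm (nurim) rose by 0.67 and Banf1, a small protein that bridges LEM domains and DNA, by 0.42 (adjusted p = 0.0132 and 0.0144, edgeR). Banf1 missed the threshold without a filter on low counts (edgeR adjusted p = 0.0617) and without the mESC library of 8193825 counts (0.0737). Nrm missed it without the mESC library of 7462710 counts (0.0545). Over library size alone 6 genes of this list were higher and 3 lower. Tm7sf2, the paralogue of Lbr with sterol reductase activity, had 5.78 to 15.1 CPM in MEFs and 7.84 to 11.0 CPM in mESCs and did not pass the test (95% interval of the log2 fold change -0.87 to 0.68, adjusted p = 0.848).

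Prelamin A is farnesylated and then cut by the protease Zmpste24. Zmpste24 held 45.1, 37.0, 36.5 and 47.8 CPM in MEFs and 21.1, 16.7 and 15.9 CPM in mESCs. It fell by 1.22 on the log2 scale (SE 0.201, edgeR adjusted p = 5.50e-04). Fntb, the beta subunit of the farnesyltransferase, rose by 1.54 (adjusted p = 0.00133), and the other 3 of the 5 processing genes, Fnta, Rce1 and Icmt, did not pass.

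Among 7 other SUN and KASH genes 5 were tested, with 2 higher and 1 lower. Syne3, whose protein nesprin-3 binds the linker plectin, had 135, 104, 59 and 91 counts in MEFs and 10, 4 and 18 counts in mESCs. It fell by 3.31 on the log2 scale (SE 0.482, edgeR adjusted p = 2.31e-04). The log2 fold change was -3.96 without the mESC library of 7462710 counts and -2.93 without that of 8057985 counts. Its partner Plec, in the list of cytoplasmic partners, held 442, 447, 511 and 309 CPM in MEFs and 85.6, 61.3 and 47.5 CPM in mESCs, and fell by 2.72 (adjusted p = 7.16e-06). In that list 0 of 6 genes were higher and 4 were lower by edgeR, with a median of -1.10. At an unadjusted p under 0.05 none of the 6 was higher either, and over library size alone 1 was. Of all tested genes, 22.8% were higher and 25.0% lower. With only 6 genes, 0 higher is not read as a trait of the list. Kif5b, a kinesin heavy chain, changed least of the 4 lower genes, with a log2 fold change of -0.47 (adjusted p = 0.0264). It lost its call over library size alone (-0.18, adjusted p = 0.330). It also did so without the MEF library of 11441278 or of 7312679 counts or without any 1 of the mESC libraries, with edgeR adjusted p from 0.0509 to 0.0894. Lrmp had 0, 2, 1 and 0 counts in MEFs and 48, 30 and 16 in mESCs. Its MEF libraries were all under the floor of 3 counts, so its fitted fold change is not given.

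Of 5 heterochromatin partners, 1 was higher (Cbx1, which encodes HP1 beta, log2 fold change 0.60, adjusted p = 0.0167, edgeR) and 2 were lower. Of the paralogues of Cbx1, Cbx3 was lower (log2 fold change -0.73, adjusted p = 0.0126, edgeR) and Cbx5 did not pass. Hdac3, a histone deacetylase known to be held at the lamina with emerin and LAP2, fell by 1.38 (adjusted p = 0.00184, edgeR). The call of Cbx1 was lost without the mESC library of 8057985 counts (log2 fold change 0.36, edgeR adjusted p = 0.0905). Of 28 tested nuclear pore genes, 19 were higher and 1 was lower in mESCs, with a median log2 fold change of 0.84, and the other 8 did not pass. Over all tested genes 22.8% were higher and 25.0% lower, with a median of 0.04. Nup210 had 17, 6, 1 and 2 counts in MEFs and 371, 347 and 135 counts in mESCs (log2 fold change 5.33, adjusted p = 2.45e-05, edgeR), with 2 MEF libraries under the floor. The fold change rests on few MEF counts. It was 6.19 without the MEF library of 11441278 counts and 5.03 without that of 7312679 counts. Sec13, which also serves in COPII vesicles, was the lower one and fell by 1.39 on the log2 scale (adjusted p = 4.70e-05, edgeR).

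**Figure D5:**
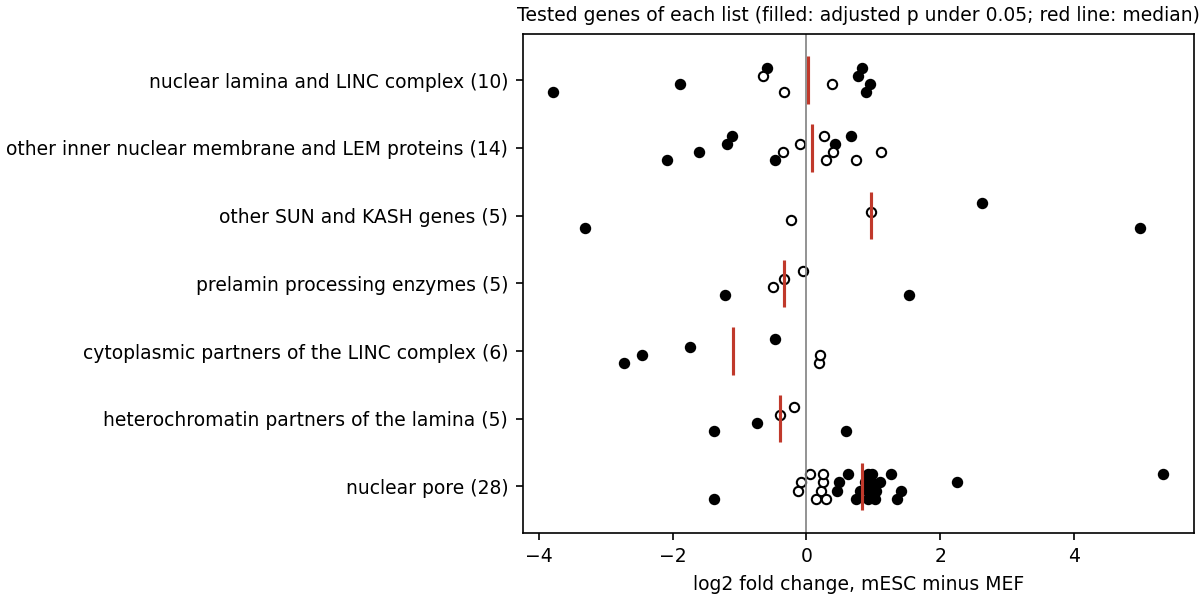
Log2 fold change, mESC minus MEF, of the tested genes of the members and of each further list (number tested in brackets), with filled points past the adjusted threshold and a red line at the median. The nuclear pore genes lie mostly above 0, with a median of 0.84, while the lamina and LINC members lie on both sides, with a median of 0.03. The highest point of the SUN and KASH list is Lrmp, whose MEF counts are under the floor.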

How the data were processed

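RNA was measured in 4 MEF and 3 mESC libraries. Libraries were 3′-biased with molecular identifiers, per the labels. Per the study's methods, the authors trimmed and demultiplexed reads, aligned them to mm10 with STAR (2.4.2a in the submitters' processing notes, another version in the methods), collapsed molecular identifiers and used featureCounts on exons with reads that mapped once. The authors deposited whole-number counts per gene without normalization. The annotation release and strand setting are not given in the sources used here, and 0 columns were left unused. Column names give the cell type, a number that is the same in every column, and a letter (O for MEF, Y for mESC). The meaning of that number and letter is not given. A last number is not tied to a sample by the labels, so libraries are named by their totals.

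Counts were tested with edgeR 4.0.16 (R 4.3.3, TMM, filterByExpr, quasi-likelihood test, Benjamini-Hochberg). Intervals are at 95%. Ratios were tested by exact permutation of the libraries. The code was tested on simulated data. Alternatives were DESeq2 1.42.0, other scalings and filters, a fold change threshold of 2, other ratio settings and each library left out. Members and lists were chosen with earlier results of these data known. The genes named are all members, the called gene with the highest and the lowest fold change of each list, and Tm7sf2, Zmpste24 and Banf1. Others were named after their values were seen. Fnta, Rce1 and Icmt are the rest of a list, and Cbx3 and Cbx5 are paralogues of Cbx1. Fut4, Ptprc, Cd34, Kit, Mecom, Procr, Thy1, Twist1, Lum and Fn1 are markers, and Dnah14 and Gm14686 are overlapping genes. Gene positions follow GENCODE M21 (GRCm38), and promoters are from RefSeq (GRCm38.p6), with chromosome 18 left out.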

Additional observations from a re-analysis of the deposited data

Results flagged for a closer look

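Among 4 MEF libraries, a library was taken to stand apart where its gap to the nearest other, divided by the range, was above Dixon's critical value at 95%. Of 29 groups of values tested, 2 passed, where chance alone, about 1 in 20, gives 1.45, and both belong to genes outside the members. For Tmem43 the ratio was 0.859, from the MEF library of 7312679 counts with 65.7 CPM against 41.9 to 44.7 CPM in the others. For Fntb it was 0.864, from the MEF library of 9176467 counts with 9.03 CPM against 5.01 to 5.43 CPM.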

How the results depend on the processing

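No paired analysis was possible because the column names do not give the replicate numbers of the sample titles. TMM scaling shifted all genes, whose median log2 fold change went from 0.32 to 0.04 (a shift of -0.29). It thereby moved the share of called genes that were higher in mESCs from 61.0% to 47.7%. All 10 members kept their direction in the 13 alternatives to the fit, with Lmna between -3.91 and -3.49. Lmna and Sun2 stayed past the threshold in all of them. Over library size alone, Lmnb1 passed and Emd missed, which gave 5 members higher and 2 lower. In the other inner membrane list 6 genes were then higher and 3 lower, 1 cytoplasmic partner was higher and 1 heterochromatin partner was lower. Without a filter beyond 1 count, 1 inner membrane gene was higher. A test against a fold change of 2, stricter by construction, left 1714 genes higher and 2277 lower. It left 0 members higher, with Lmna and Sun2 still lower. In the inner membrane list it left 0 higher and 2 lower, in the SUN and KASH list 1 higher, and in the nuclear pore list 3 higher. In both the prelamin and the heterochromatin lists it left 0 higher and 0 lower. Leaving out each library in turn gave 3 to 4 members higher and 3 lower. It gave 1 to 3 inner membrane genes higher and 3 to 5 lower, 1 to 3 SUN and KASH genes higher, 0 to 1 cytoplasmic and 0 to 1 heterochromatin partners higher. Tm7sf2, which ran from -0.30 to 0.15 with 1 library left out, reversed to 0.19 over library size alone, to 0.15 without the MEF library of 9176467 counts and to 0.03 without the mESC library of 8193825 counts. The causes were not tested unless stated. The ratios kept their direction, and Lmna to Lmnb1 ran from -4.38 to -4.00 on the log2 scale with 1 library left out, where no permutation p can reach the threshold. Low counts limit the precision of Sun2 and Syne1 among the members, and of Syne3, Fntb, Nup210 and Lrmp.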
